A study of Mus musculus with 2 samples.

Results

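Myosin heavy chains are the motor proteins of the muscle thick filament, and the 8 genes followed here are those of skeletal and cardiac muscle, namely Myh1, Myh2, Myh3, Myh4, Myh6, Myh7, Myh8 and Myh13. They were read on 2 expression arrays of mouse diaphragm muscle of the C57/BL6 strain at stage E18.5, with 1 array labelled RP58-/- and 1 labelled RP58+/+. RP58, now named Zbtb18, is a zinc finger protein that represses transcription. The comparison asks how muscle RNA differs when RP58 is absent. How the null allele was made and how many embryos each sample came from are not given in the sources used here. All probe sets annotated with exactly 1 of the 8 symbols were taken, which gave 11 probe sets of 7 genes among 34945 probe sets with 1 symbol on the array. Myh13 had no such probe set, and 2 further probe sets that carry both the Myh6 and the Myh7 symbol were left out.

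A muscle fibre's contraction speed follows largely from which heavy chain it makes, and the isoforms succeed each other in development. Myh3 encodes the embryonic chain and Myh8 the perinatal (neonatal) chain. Adult fast fibres use Myh2 (type IIA), Myh1 (type IIX) and Myh4 (type IIB), slow fibres use Myh7 (type I, also the beta chain of the heart), Myh6 encodes the alpha chain of the heart, and Myh13 is the chain of eye muscles. In the mouse the skeletal genes other than Myh7 lie side by side on chromosome 11, and Myh6 and Myh7 form a pair on chromosome 14. At late fetal stages a diaphragm contains embryonic and perinatal chains together with the first adult isoforms.

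In the RefSeq annotation of GRCm38.p6, the chromosome 11 genes follow each other in the order Myh3, Myh2, Myh1, Myh4, Myh8, Myh13, all on the plus strand. The start-site windows of 5 of them are printed here because they show what the cluster genes, among them Myh8 and Myh1, have in common in sequence. They come from RefSeq (GRCm38.p6), run 5′ to 3′ on the plus strand over 300 bases and end just past the annotated start, at chr11:67276874-67277173 for Myh8, chr11:67199852-67200151 for Myh1, chr11:67237562-67237861 for Myh4, chr11:67170777-67171076 for Myh2 and chr11:67078050-67078349 for Myh3. Capitals mark the longest run shared by Myh1, Myh4 and Myh8, the longest run shared by those 3 and Myh2, and the plus-strand TATA box letters TATAAA.
Myh8: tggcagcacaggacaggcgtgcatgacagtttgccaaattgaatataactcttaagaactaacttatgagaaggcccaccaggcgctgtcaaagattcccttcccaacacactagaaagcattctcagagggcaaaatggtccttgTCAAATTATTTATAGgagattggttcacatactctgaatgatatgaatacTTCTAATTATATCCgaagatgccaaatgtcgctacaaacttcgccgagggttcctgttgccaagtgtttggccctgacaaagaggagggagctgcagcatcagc
Myh1: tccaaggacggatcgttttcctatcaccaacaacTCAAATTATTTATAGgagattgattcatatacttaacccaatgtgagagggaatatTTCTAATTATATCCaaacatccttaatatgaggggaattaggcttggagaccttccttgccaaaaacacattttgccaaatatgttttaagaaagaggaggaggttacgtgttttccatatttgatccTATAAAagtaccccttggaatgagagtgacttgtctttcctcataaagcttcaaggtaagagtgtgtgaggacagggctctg
Myh4: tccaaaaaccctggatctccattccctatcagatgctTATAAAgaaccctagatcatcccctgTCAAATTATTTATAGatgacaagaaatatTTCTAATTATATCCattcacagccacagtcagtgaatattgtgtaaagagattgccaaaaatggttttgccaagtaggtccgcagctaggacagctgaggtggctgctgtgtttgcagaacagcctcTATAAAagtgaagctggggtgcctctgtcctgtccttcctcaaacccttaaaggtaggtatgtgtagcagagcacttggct
Myh2: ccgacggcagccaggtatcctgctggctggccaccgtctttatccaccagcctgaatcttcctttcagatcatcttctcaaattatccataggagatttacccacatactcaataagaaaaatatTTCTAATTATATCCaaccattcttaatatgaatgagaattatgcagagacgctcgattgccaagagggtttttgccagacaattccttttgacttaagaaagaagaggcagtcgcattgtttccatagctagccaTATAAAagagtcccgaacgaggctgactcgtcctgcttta
Myh3: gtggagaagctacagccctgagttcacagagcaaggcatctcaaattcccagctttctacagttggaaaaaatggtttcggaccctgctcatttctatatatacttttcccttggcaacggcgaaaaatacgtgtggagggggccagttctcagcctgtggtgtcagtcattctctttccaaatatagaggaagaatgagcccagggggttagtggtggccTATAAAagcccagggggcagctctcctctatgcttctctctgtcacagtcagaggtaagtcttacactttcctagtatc

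The run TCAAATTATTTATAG of 15 bases stood in the windows of Myh1, Myh4 and Myh8 and in no other of 32851 RefSeq windows of this length, searched on both strands. It contains a match to the MEF2 consensus, the AT-rich element read by myocyte enhancer factors. That consensus was found in 3.19% of all windows, and among the 8 genes only in the windows of Myh1, Myh4 and Myh8, where it began 211, 182 and 99 bases before the annotated start. In these 3 windows the match is part of the run itself, so it is not a separate finding. The run was sought as the longest that these 3 genes share, and its length alone makes it rare elsewhere. The second run, TTCTAATTATATCC, of 14 bases, was shared by Myh2, Myh1, Myh4 and Myh8 and occurred in 4 of the 32851 windows. Over the whole windows, these runs included, global alignment gave 59.0% identical positions for Myh1 with Myh4, the highest of 15 pairs among the 6 chromosome 11 genes, 55.1% for Myh1 with Myh2 and 49.6% for Myh1 with Myh8. Myh1 with Myh3, whose window holds neither run, gave 51.1%. Over the whole windows Myh1 and Myh8 were thus no more alike than Myh1 and Myh3. E-box letters, CANNTG, the kind of site bound by MyoD-type factors, had 3 matches in the Myh4 window, 2 in that of Myh8, 1 in that of Myh3 and none in those of Myh1 and Myh2, and were present in 72.3% of all windows. The RP58 core letters ACATCTG, which overlap the E-box, were absent from the windows of all 8 genes and present in 4.43% of all windows. TATAAA, the letters of the TATA box that positions the transcription start, began 32, 31 and 29 bases before the start in the windows of Myh1, Myh4 and Myh3. A second match in the Myh4 window began 213 bases before the start, that of Myh2 lay past the start, and the Myh8 window had none on the plus strand. The letters stood on either strand in 13.6% of all windows. These matches describe letters, not occupied sites.

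The arrays were alike in their summary. Deposited log2 signals had medians of 6.03 on the array labelled RP58-/- and 6.02 on that labelled RP58+/+, and the table held 45101 probe sets. The gene RP58 itself was no check of the labels: the Zbtb18 probe set had a signal of 9.21 (log2) on the array labelled RP58-/- and 8.91 on that labelled RP58+/+, and where it lies relative to the altered part is not stated in those sources. Directions below therefore rest on the labels. Sex-linked RNA separated the arrays as well, with Xist at a signal of 6.96 (log2) on the array labelled RP58-/- and 11.47 on that labelled RP58+/+, so that genotype and this difference cannot be told apart. With 1 array per genotype there was no test and no replicate check of any value. A gene was called lower or higher when its signals differed by at least 1.5-fold (0.58 on the log2 scale), it was read from its brightest probe set, and probe sets with a mean log2 signal under 5.52, the 40th percentile, were set aside as too dim. The pooled SD of the difference between probe sets of 1 gene was 0.28 over 5675 genes, which covers probe sets but not embryos.

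Perinatal Myh8 and, at 2 of its 3 probe sets, adult fast Myh1 were about 4-fold lower on the array labelled RP58-/-, whereas embryonic Myh3 and slow Myh7 were lower by just under 1.5-fold and Myh2 differed little. Of 8 genes, 5 lay above the floor, all 5 were below 0, 2 were called lower and 0 higher, where 6.51% of all 14093 genes above the floor were called lower and 3.83% higher. The median difference of the 5 genes was -0.58, beside -0.003 for all genes. By probe set, 3 of 7 above the floor were called lower, and 0 higher, against 6.49% lower and 3.35% higher among all probe sets above it. Scaling to the poly-A spike-in controls, which were themselves lower by a median of 0.75 on the array labelled RP58-/-, would raise the difference of every gene by that amount: Myh8 and Myh1 then stayed below 0, at -1.19 and -1.24, and Myh3, Myh7 and Myh2 turned positive, at 0.20, 0.17 and 0.57. The differences given are those of the deposited signals without further centring, where the median gene differed by -0.003. In a bulk sample, fewer muscle cells and less RNA per muscle cell cannot be told apart.

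**Figure D1:**
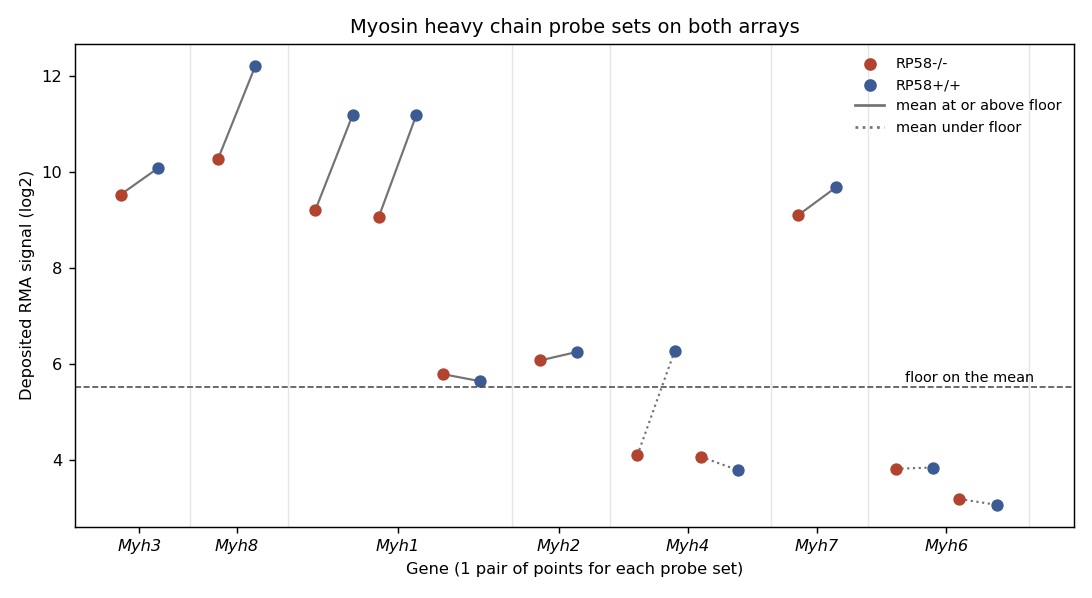
Deposited log2 RMA signal (y axis) of every member probe set on the array labelled RP58-/- (red, left) and that labelled RP58+/+ (blue, right), by gene; 1 array per genotype, so there are no error bars. Myh8 and the 2 bright Myh1 probe sets show the steep lines, at 10.26, 9.20 and 9.07 on the array labelled RP58-/- against 12.20, 11.18 and 11.18 on that labelled RP58+/+, the lines of Myh3 and Myh7 are shallow, and both Myh6 probe sets lie under the floor of 5.52 (dashed); under poly-A spike-in scaling the lines of Myh3, Myh7 and Myh2 would slope the other way.

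Among the developmental chains, Myh8 on chromosome 11 (67277124 to 67308634) had a signal of 10.26 (log2) on the array labelled RP58-/- and 12.20 on that labelled RP58+/+. The difference was -1.94, or 3.85-fold lower, and ranked as the 55th lowest of 14093 genes. A single probe set read it. Myh3, at 67078273 to 67102291 on the same chromosome, had 9.52 on the array labelled RP58-/- and 10.07 on that labelled RP58+/+. Its difference of -0.55 (1.47-fold lower) missed the size rule by little and would be 0.20 under poly-A scaling. The difference of Myh8 was more negative than that of Myh3 by 1.39 on the log2 scale, a contrast that does not depend on how the arrays are scaled as a whole. That contrast is larger than the probe set SD of 0.28, but each side is 1 probe set on 1 pair of arrays. The SD is pooled over genes of all kinds. Probe sets of 1 gene can lie further apart than this contrast: those of Myh1 ran from -2.12 to 0.15.

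Among the adult fast chains, Myh1 (chromosome 11, 67200102 to 67224577) was read by 3 probe sets, which disagreed. Its brightest probe set had a signal of 9.20 (log2) on the array labelled RP58-/- and 11.18 on that labelled RP58+/+, a difference of -1.99 (3.96-fold lower, the 49th lowest gene). Another bright probe set gave 9.07 on the array labelled RP58-/- and 11.18 on that labelled RP58+/+, a difference of -2.12. The dim one, at 5.79 on the array labelled RP58-/- and 5.64 on that labelled RP58+/+, differed by 0.15, close to the floor. The names of the 2 bright probe sets end in _a_at and _x_at, which mark probes shared by several transcripts of a gene and probes that resemble other genes. Heavy chain genes of the cluster are close relatives, so the share of the Myh1 signal that came from its neighbours was not tested. Without probe sets of these kinds Myh1 was read from the dim one alone and its difference was 0.15.

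Myh4, the type IIB chain (67237812 to 67260447), lay under the floor. Its better probe set had a signal of 4.09 (log2) on the array labelled RP58-/- and 6.27 on that labelled RP58+/+. The array labelled RP58+/+ alone was above the floor, so that the difference of -2.18 rests on a signal too dim to give its size. A second Myh4 probe set was dim on both arrays, at 4.06 on that labelled RP58-/- and 3.78 on that labelled RP58+/+. Myh2, the type IIA chain (67171027 to 67197517), had 6.07 on the array labelled RP58-/- and 6.25 on that labelled RP58+/+. This difference of -0.18 was smaller than the probe set SD, and it came from a signal near the floor; under poly-A scaling it would be 0.57. Between the neighbouring fast genes Myh1 and Myh2 the differences were 1.81 apart, Myh1 being the more negative at its brightest probe set.

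Of the pair on chromosome 14, slow Myh7 (54970684 to 54994626) had a signal of 9.10 (log2) on the array labelled RP58-/- and 9.67 on that labelled RP58+/+. Its difference of -0.58 (1.49-fold lower) fell just short of the size rule and lay within 0.024 of that of Myh3. It was -0.60 and called lower with centring on the median of all probe sets, and 0.17 under poly-A scaling. Cardiac Myh6 (54941921 to 54968017) was under the floor on both arrays and in both of its probe sets. They read 3.82 and 3.19 on the array labelled RP58-/- and 3.84 and 3.06 on that labelled RP58+/+, near the lowest signal of each array, 2.91 on that labelled RP58-/- and 2.90 on that labelled RP58+/+. Of 14 heart markers, Nppa, Tnni3, Tbx20 and Ryr2 were also under the floor, and 10 were above it. Among those 10, Tnnt2 read 10.37 (log2) on the array labelled RP58-/- and 10.50 on that labelled RP58+/+. Myl7 read 8.33 on the array labelled RP58-/- and 8.22 on that labelled RP58+/+. Which tissue gave the Tnnt2 and Myl7 signals was not tested. The 10 genes had a median difference of 0.05. The 1 called lower, beside 6.51% of all genes, was the sarcolipin gene Sln, which fetal skeletal muscle also expresses.

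**Figure D2:**
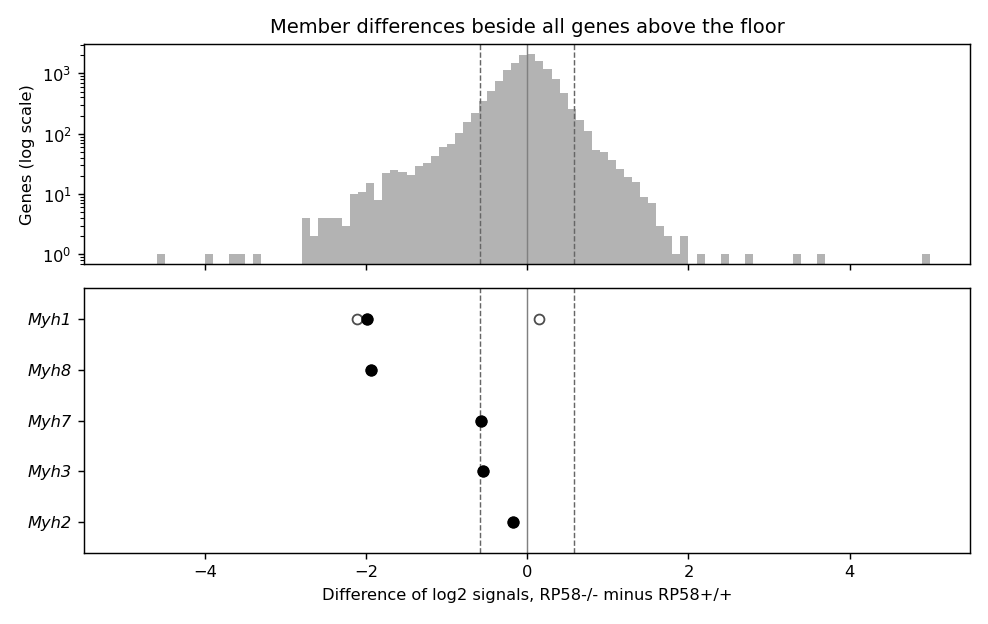
Top, histogram of the difference of log2 signals (RP58-/- minus RP58+/+, x axis) for 14093 genes above the floor, with a logarithmic count axis; bottom, the 5 heavy chain genes above the floor, filled points for the brightest probe set and open points for the others. Dashed lines are the 1.5-fold rule: Myh1 (-1.99) and Myh8 (-1.94) lie in the left tail, Myh7 (-0.58) and Myh3 (-0.55) at the left line and Myh2 (-0.18) near 0, the last 3 on the right of 0 under poly-A scaling, and the dim Myh1 probe set lies at 0.15.

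The differences were also set beside the position of the genes. On chromosome 11, Myh1, Myh4 and Myh8 adjoin each other, and the RNA Myhas, annotated on the opposite strand between Myh1 and Myh4 (67224196 to 67237281), had a signal of 6.42 (log2) on the array labelled RP58-/- and 7.80 on that labelled RP58+/+, a difference of -1.38 (2.61-fold lower). Myhas overlaps the end of Myh1 by 382 bases, and its probe set and the _x_at probe set of Myh1 were designed from the same database sequence, so the 2 readings may not be independent. Of 15 other genes in and within 5 places of the cluster, 5 were above the floor and Myhas was the only one called lower. The flanking genes Adprm (-0.08), Sco1 (0.09), which encodes a copper chaperone of cytochrome oxidase, and Gas7 (-0.22), all outside the cluster, and 2310065F04Rik (-0.20), between Myh3 and Myh2, were within the size rule. Around Myh6 and Myh7, 6 of 13 genes were above the floor, 0 were called lower or higher, and their differences ran from -0.34 to 0.18. The counts of neighbours at both loci stand beside 6.51% called lower and 3.83% higher among all genes. They are too small to be set apart from those shares.

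**Figure D3:**
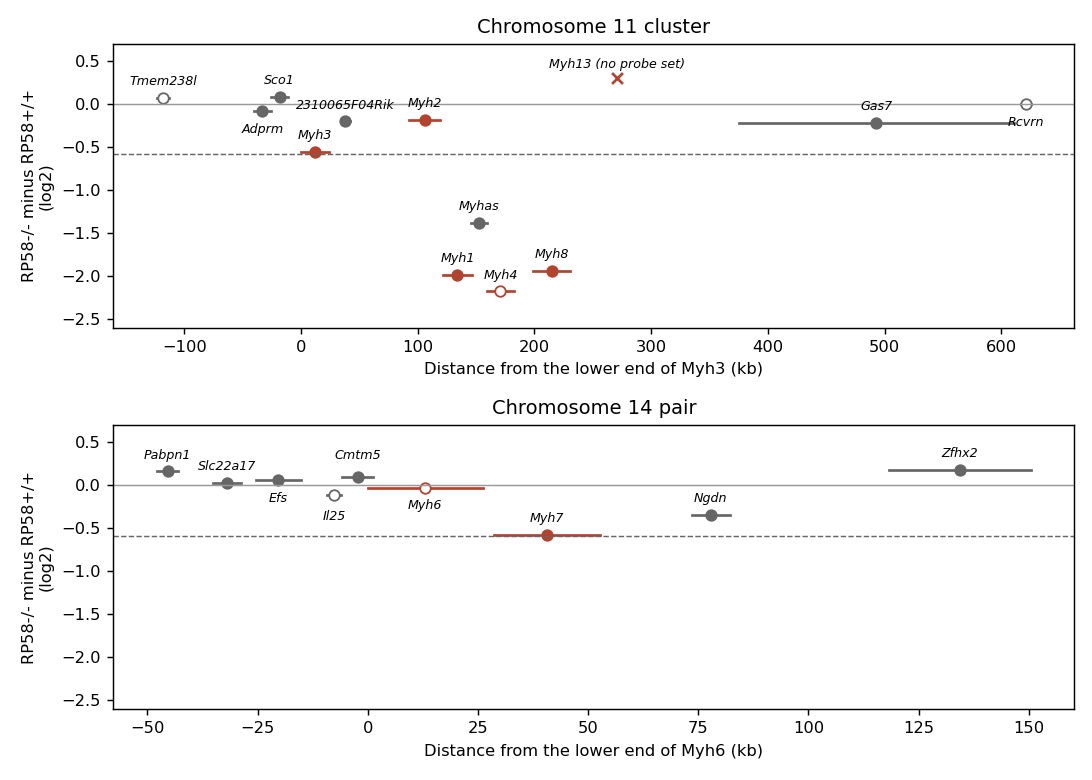
Difference of log2 signals (RP58-/- minus RP58+/+, y axis) along the 2 heavy chain loci, with distance from the lower end of Myh3 or Myh6 in kb on the x axis; bars span each gene, members are red, other genes with a probe set grey, open symbols are under the floor, the dashed line is 1.5-fold lower and the cross marks Myh13, which had no probe set and no value. Myh1, Myhas, Myh4 (under the floor) and Myh8 lie low and next to each other, whereas Myh3 (-0.55), Myh2 (-0.18) and the flanking genes lie higher; poly-A scaling would lift all points by 0.75.

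Genes whose signals lay nearest those of each member on the 2 arrays, by Euclidean distance, were listed for description. For Myh8 these were Apobec2, Myoz1 and Myot, with distances of 0.09, 0.12 and 0.21 and differences of -1.83, -2.10 and -2.10. Myoz1 and Myot encode the Z-disc proteins calsarcin-2 and myotilin. For Myh1 they were Actn3 (-2.13), the fast fibre alpha-actinin, the myoglobin gene Mb (-1.77) and Nipsnap2 (-1.77). The nearest genes of Myh3 were Marchf7 (-0.49), Dlst (-0.54) and Gatd3a (-0.55), those of Myh7 were Vasn (-0.59), Hspb8 (-0.56) and Chtop (-0.60), and those of Myh2 were Oprl1 (-0.18), C1qtnf4 (-0.18) and Ocrl (-0.17). With 2 arrays a likeness means only a similar pair of signals.

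Heavy chains work with light chains, which bind the neck of each motor head. Of 12 light chain genes 11 were above the floor, and 4 were called lower and 0 higher, beside 6.51% and 3.83% of all genes. Their median was -0.35 (0.39 under poly-A scaling). Myl3, the slow and ventricular essential chain, differed by -1.87, and its 3 probe sets ran from -1.87 to -1.08. Myl2, the slow regulatory chain, differed by -0.82. The fast chains Myl1 and Mylpf, which pair with Myh1, Myh2, Myh4 and the developmental chains, had log2 signals of 13.55 and 13.61 on the array labelled RP58-/-, against 14.19 and 14.20 on that labelled RP58+/+. Their differences of -0.64 and -0.59 were smaller in size than those of Myh8 and Myh1. On the array labelled RP58+/+ both lay near its highest signal, 14.39, so these sizes may be understated and the comparison is limited.

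Proteins that bind or hold the thick filament had the lowest median of the 6 partner lists. Of 12 genes of this list above the floor, 8 were called lower and 0 higher, beside 6.51% and 3.83% of all genes. Their median of -1.35 remained below 0 under poly-A scaling (-0.60). Mybpc2, the fast myosin-binding protein C, had a signal of 7.12 (log2) on the array labelled RP58-/- and 10.48 on that labelled RP58+/+, a difference of -3.36. Mybpc1, the slow form, differed by -1.91 at its brightest probe set and by -1.86 and -0.58 at the others. Trim63, a ubiquitin ligase that acts on thick filament proteins, differed by -1.61, and Mybph, another myosin-binding protein, by -1.60. The M-band gene Myom1 (-1.30) and the titin gene Ttn (-0.92), whose giant protein spans the thick filament, were called lower as well. The cardiac form Mybpc3 differed by 0.01.

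Myosin heads need chaperones to fold. Of 8 chaperone and assembly genes above the floor, 3 were called lower and 0 higher, beside 6.51% and 3.83% of all genes. Their median was -0.29 (0.46 under poly-A scaling). Unc45b, the muscle chaperone dedicated to myosin, had a signal of 6.94 (log2) on the array labelled RP58-/- and 8.69 on that labelled RP58+/+, a difference of -1.74. Its general counterpart Unc45a differed by 0.03 at its brightest probe set, with its 3 probe sets above the floor running from -0.07 to 0.80, and the co-working heat shock protein gene Hsp90aa1 by 0.17. Fhl1, a LIM protein of muscle, differed by -0.94 and Cryab, a small heat shock protein, by -0.90.

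Heavy chains outside the sarcomere had a median above 0. Of the other class II heavy chain genes, 4 of 7 were above the floor, 0 were called lower and 1 higher, with a median of 0.53 (1.28 and 4 called higher under poly-A scaling). Myh11, the smooth muscle chain, had a signal of 6.57 (log2) on the array labelled RP58-/- and 5.89 on that labelled RP58+/+, a difference of 0.67. The non-muscle chains Myh10 and Myh9 differed by 0.53 each at their brightest probe set, but the 3 other Myh9 probe sets above the floor ran from -0.02 to 0.01. Of 18 unconventional myosin genes above the floor, whose products carry cargo or tether membranes, 0 were called lower and 1 higher. The median was 0.08 (0.83 and 16 called higher under poly-A scaling). The gene called higher was Myo1c (0.62), and the 4 probe sets of Myo1c ran from 0.19 to 0.62. The counts of both lists stand beside 6.51% called lower and 3.83% higher among all genes, and are too small to be set apart from those shares. Myo18a, the next brightest, differed by 0.08. No list of myosins was tested against another.

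Of 37 genes that regulate heavy chain transcription or fibre type, 35 were above the floor, 6 were called lower and 1 higher, beside 6.51% and 3.83% of all genes, and the median was -0.24 (0.51 under poly-A scaling). Myf6 (MRF4), a myogenic factor of maturing fibres, differed by -2.46, and Myf5, a factor of myoblasts, by -1.94 with a signal of 5.10 (log2) on the array labelled RP58-/- that lies under the floor and 7.04 on that labelled RP58+/+. Eya4, a transcriptional cofactor of developing muscle, differed by -1.19, and Tbx15, a T-box factor of fast glycolytic fibres in the mouse, by -1.09. Mef2c, a myocyte enhancer factor named after its values were seen, had 5 probe sets, which ran from -1.34 to -0.79. Its relatives Mef2a (-0.40) and Mef2d (-0.56) were within the size rule at their brightest probe sets. Their probe sets above the floor ran from -0.71 to 0.29 for Mef2a and from -0.56 to 0.25 for Mef2d. The myogenic factor genes Myod1 (-0.18) and Myog (0.09) were within the size rule as well. The coactivator gene Ppargc1a differed by -0.63 at its brightest probe set, and its 5 probe sets ran from -1.11 to -0.19, 3 of them within the size rule. Prdm1, whose zebrafish counterpart directs slow fibre fate, was the 1 gene called higher, at 0.62 from a signal of 5.86 (log2) on the array labelled RP58-/- and 5.24 on that labelled RP58+/+. Nfix, a factor of the switch to fetal muscle genes in the mouse, differed by 0.51 at its brightest probe set, and its 4 probe sets above the floor ran from -0.02 to 0.51. The calcineurin gene Ppp3cb differed by -0.48 at its brightest probe set, and its 4 probe sets above the floor ran from -0.79 to 0.07.

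Markers of skeletal muscle had a median below 0, whereas those of liver, lung and mesothelium had medians above 0. All 17 skeletal muscle markers were above the floor. The log2 of their summed signals, which the brightest genes dominate, was 15.66 on the array labelled RP58-/- and 16.65 on that labelled RP58+/+. Of these markers 14 were called lower and 0 higher, beside 6.51% and 3.83% of all genes, with a median of -1.06. They were not lower to one extent: Actn3 differed by -2.13 and the fast troponin gene Tnnt3 by -1.72, while the slow troponin genes Tnni1 and Tnnt1 differed by -0.50 and -0.21 and the myogenic factor gene Myog by 0.09. The Myh8 and Myh1 differences were thus below the median of these markers, and those of Myh3 and Myh7 above it. Of 12 liver markers 8 were called higher and 0 lower (median 0.75). The log2 of their summed signals was 17.00 on the array labelled RP58-/- and 16.49 on that labelled RP58+/+. Of 6 lung markers above the floor 4 were called higher, and Scgb1a1, Nkx2-1 and Sftpa1 were under the floor. The log2 of the summed signals of those 6 was 11.72 on the array labelled RP58-/- and 9.26 on that labelled RP58+/+. The lung markers differed unevenly: Sftpc by 3.64, with signals of 11.30 (log2) on the array labelled RP58-/- and 7.65 on that labelled RP58+/+, Cxcl15 by 2.46 and Sftpb by 0.12. Of 8 mesothelium markers 4 were called higher. The log2 of their summed signals was 13.63 on the array labelled RP58-/- and 13.00 on that labelled RP58+/+. Of 8 smooth muscle markers 2 were called lower and 1 higher. The log2 of their summed signals was 11.76 on the array labelled RP58-/- and 11.99 on that labelled RP58+/+. The counts of all these lists stand beside the same shares of all genes. The part of these tissues in the heavy chain differences was not tested.

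**Figure D4:**
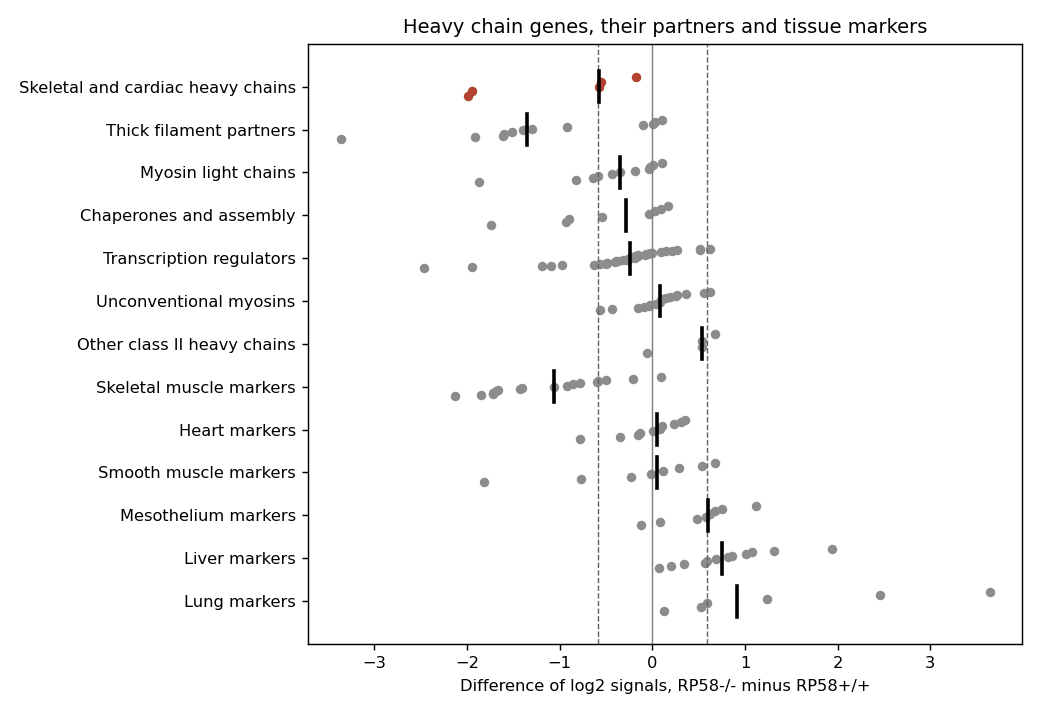
Difference of log2 signals (RP58-/- minus RP58+/+, x axis) of every gene above the floor in the heavy chain family (red), its partner lists and the tissue marker lists (grey); each point is 1 gene at its brightest probe set, black bars are medians and dashed lines the 1.5-fold rule. The medians lie at -0.58 for the heavy chains, -1.35 for thick filament partners and -1.06 for skeletal muscle markers, and at 0.60, 0.75 and 0.91 for mesothelium, liver and lung markers; poly-A scaling would move every point by 0.75 to the right and the heavy chain median above 0.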

How the data were processed

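The authors deposited 1 table of log2 signals, made with RMA (background correction, quantile normalisation and probe set summary), per the series' design text, with Affymetrix Expression Console 1.1 named in the submitters' processing notes. The arrays that entered the normalisation are not named. The design text names a smaller array of the same family than the one whose annotation holds the probe sets and was used for gene names. The sorted columns differed by at most 0.119, so a difference in total RNA between samples cannot be seen.

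Differences were taken as RP58-/- minus RP58+/+ in Python 3.11.15 with pandas 2.3.3; loess centring used statsmodels 0.14.6 with a fraction of 0.3, and alignments biopython 1.88. With 1 array per genotype no test was run. The functions were tested on simulated data. Named genes were all members with every probe set, the most changed and brightest genes of each of 6 partner lists, the nearest 3 genes of each member and neighbours within 5 places. Relatives of some of these genes were named as well. Members and lists were chosen with earlier results of these data known. Alternatives were a 2-fold rule, other floors, averaging of probe sets, omission of shared probe sets, and median, loess and spike-in centring.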

Additional observations from a re-analysis of the deposited data

How the results depend on the processing

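The calls of Myh8 and Myh1 (2 genes, 3 probe sets) and the other main results were recomputed under 9 alternatives. Without _s_at, _x_at and _a_at probe sets, 1 gene and 1 probe set were called lower, and the difference of Myh1 turned from -1.99 to 0.15, since its dim probe set alone was left. Averaging probe sets gave -1.32 for Myh1. With no floor, Myh4 entered at -2.18 and Myh6 at -0.03. With a floor at the 60th percentile (6.57), which removes Myh2, the median of the members was -1.26. Scaling to the poly-A controls moved all genes to a median of 0.74 and gave a member median of 0.17, with Myh8 at -1.19, Myh1 at -1.24, Myh2 at 0.57, Myh3 at 0.20 and Myh7 at 0.17. In the partner lists 21 genes were lower and 3 higher, beside 6.51% and 3.83% of all genes. At 2-fold these counts were 13 and 0, where 2.31% of all genes were lower. Under poly-A scaling they were 10 and 46, where 1.29% of all genes were lower. With the higher floor 1 gene was higher. Median, loess and hybridisation control scaling moved each member value by less than the probe set SD, but under median centring Myh7 (-0.60) passed the size rule, so that 3 genes and 4 probe sets were called lower. No paired analysis was possible because each genotype has 1 array, and no sample could be left out. Signals near the floor, those of Myh2, Myh4 and Myh6, limit what can be said of these genes.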
